A study of Mus musculus with 6 samples.

Results

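Hif1a, Epas1, Egln1, Egln3, Vegfa, Bnip3, Ldha, Pgk1, Ankrd37 and Slc2a1 are genes of the cellular response to low oxygen, and their mRNAs were compared between garlic-fed and control spleens. Every probe set of the array annotated to 1 of these 10 genes alone was kept, whatever its values, which gave 21 of 45037 probe sets and 10 of 18193 named genes. The garlic-fed group was 3 male C57BL/6J mice on a casein and cornstarch diet with 4% lyophilized raw garlic powder, and the control group was 3 such mice on the same diet with 4% cellulose in its place. Feeding began at 8 weeks of age and the spleens were taken at week 15, with 1 Affymetrix array per mouse. The labels name no altered allele and no other agent, and both diets held added L-cysteine.

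A probe set is the array's unit of measurement, several short probes designed against 1 transcript, and its value is a MAS5 signal, which is linear and has no physical unit. Differences are given as log2 differences, garlic minus control, with p-values from limma adjusted by the Benjamini-Hochberg method over all 27022 probe sets tested. RNA was taken from whole spleen, so that fewer cells of a type and less RNA per cell cannot be told apart. The arrays shared a mean of 498 after trimming 2% from either end, but their medians differed. The median signal was 119.7 to 128.8 in garlic-fed mice and 127.9 to 132.2 in control mice. With each array centred on its median, the median log2 difference of all probe sets tested moved from -0.03 to 0.04. The markers of spleen lymphocytes, such as Ms4a1 and Cd79a, gave summed signals of 36177 to 41513 in garlic-fed mice and 38599 to 43060 in control mice. These 7 genes had a median log2 difference of -0.16, beside -0.03 over all genes. In 3 of them all garlic-fed mice lay below all control mice (10.7% of all genes). The summed signals of erythroid markers did not overlap, at 55086 to 76572 in garlic-fed mice and 35574 to 44382 in control mice. Those of the pancreas, a neighboring organ, ranged from 2149 to 36005 in garlic-fed mice and from 18554 to 141388 in control mice. Those of fat tissue were 20103, 21017 and 9050 in garlic-fed mice 1, 2 and 3, against 10813, 11344 and 11357.5 in control mice. The part of these cell types in the values below was not tested, except where a result is given without the arrays of the most pancreatic signal.

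Hypoxia-inducible factors (HIFs) are transcription factors made of an oxygen-regulated alpha subunit and a constant beta subunit. In the presence of oxygen, prolyl hydroxylases of the EGLN family mark the alpha subunit, the VHL protein binds the marked form, and the proteasome degrades it. When oxygen is scarce the alpha subunit lasts, enters the nucleus, joins ARNT and binds short DNA elements of target genes, among them those of glucose uptake, glycolysis, vessel growth and the removal of mitochondria. As this control acts on the protein, the mRNA of an alpha subunit does not report its activity, whereas the mRNAs of its targets are a usual readout. In blood formation the pathway is known for the control of the erythropoietin gene by HIF-2alpha.

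The core of the DNA element bound by HIFs is ACGTG or GCGTG, and the stretches around it are shown because every member with a start window held these letters, as pathway genes chosen in part as known HIF targets. RefSeq start windows on GRCm38.p6, from 250 bases before to 50 after the start, were at hand for 9 of the 10 genes, and Epas1 was not matched. In each line, capitals mark every whole ACGTG or GCGTG within the stretch on either strand (CACGT and CACGC on the strand shown), which overlap in CACGTG and CACGCGTG. Each stretch ends before the transcription start, and that of Pgk1 opens inside a further match, left in lower case.
Hif1a, chr12:73907779-73907819, plus strand: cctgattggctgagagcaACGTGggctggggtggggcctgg
Egln1, chr8:124949300-124949340, minus strand: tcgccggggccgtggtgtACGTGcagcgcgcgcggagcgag
Egln3, chr12:54204081-54204121, minus strand: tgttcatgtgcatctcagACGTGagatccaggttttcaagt
Vegfa, chr17:46025352-46025392, minus strand: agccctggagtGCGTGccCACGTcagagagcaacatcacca
Bnip3, chr7:138909519-138909559, minus strand: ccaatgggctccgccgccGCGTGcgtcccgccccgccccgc
Ldha, chr7:46845752-46845792, plus strand: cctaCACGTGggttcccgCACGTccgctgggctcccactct
Pgk1, chrX:106186951-106186991, plus strand: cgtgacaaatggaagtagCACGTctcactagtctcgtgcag
Ankrd37, chr8:45999980-46000020, minus strand: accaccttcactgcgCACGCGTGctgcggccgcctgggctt
Slc2a1, chr4:119108691-119108731, plus strand: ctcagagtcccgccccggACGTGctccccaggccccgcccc

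At least 1 match lay in the start windows of all 9 genes, against 46.7% of the 27025 genes with such a window. Every match holds the letters CG, and the genes behind that share were not matched for base composition. With matches that share bases counted once, the first start of Ldha had 5 sites, Bnip3 had 4 and Ankrd37 had 3, while Egln3 had 1. Vegfa has 2 starts in the table, and the window of the first held no match, so that its stretch above is from the window of the second. A match is a string of letters only, and none of these data measured binding there.

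None of the 20 member probe sets tested passed an adjusted p under 0.05 in either direction, where 0.237% of all probe sets did (0.226% higher and 0.0111% lower). One of the 20, a probe set of Egln3, was above the limit on dim signals in control mice alone, which fixes its direction, and the counts below are of the other 19. Before adjustment 2 of these had a p under 0.05, both lower, 1 of Hif1a and 1 of Pgk1, beside 5.58% of all probe sets higher and 5.44% lower. With each array centred on its median signal, 76% of all probe sets at an unadjusted p under 0.05 were higher, against 50.6% as reported, and both of these member probe sets had a p above 0.05. The garlic-fed mice lay above every control mouse in 2 member probe sets, both of Egln1, and below every control mouse in 2, where these shares over all probe sets were 7.52% and 9.29%. With each gene represented by its brightest probe set, 1 of 9 genes had an unadjusted p under 0.05 (13.1% of all genes), while 1 gene lay above (9.13%) and 2 below (10.7%) every control mouse. No member met the study's criterion of a 1.8-fold difference with an unadjusted p under 0.05, which 1.52% of all probe sets met in one direction or the other. The median log2 difference was -0.08 over the 19 probe sets and -0.03 over all tested. The spread among them ran from -0.49 to 0.21, and the adjusted p from 0.305 to 0.996. The 21st probe set, 1 of 4 of Hif1a, was dimmer than the limit set for the test, with signals of 30.5, 58.2 and 23 in garlic-fed mice, against 63.1, 60.3 and 40.5 in control mice.

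**Figure D1:**
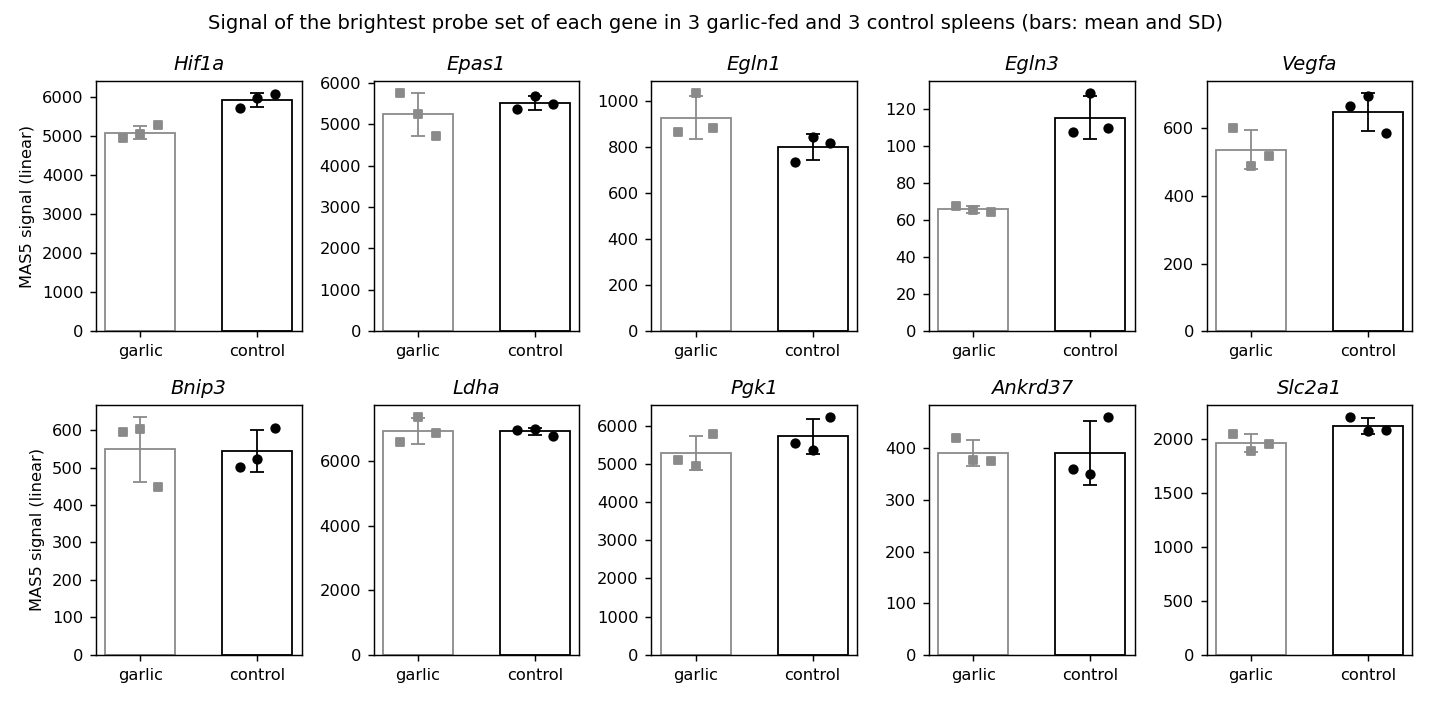
MAS5 signal (linear axis from 0) of the brightest probe set of each of the 10 genes in 3 garlic-fed mice (gray squares, left) and 3 control mice (black circles, right), with bars for the mean and error bars for the SD. Hif1a, Egln3 and Slc2a1 are the genes whose garlic-fed mice all lie below the control mice, Egln1 is the one whose garlic-fed mice all lie above, and Ldha, Bnip3 and Ankrd37 overlap with nearly equal means.

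Hif1a encodes HIF-1alpha, the oxygen-regulated subunit found in most cells. Its brightest probe set, 1427418_a_at, gave 4939, 5061 and 5273 in garlic-fed mice, against 5716, 5972 and 6074 in control mice. The groups did not overlap, and the mice of each group lay within a narrow band. The signal averaged 5091 ± 169 in garlic-fed mice and 5920 ± 185 in control mice (SD, n = 3 each). The log2 difference was -0.22 (standard error 0.07, 95% interval -0.38 to -0.05, adjusted p = 0.305 from limma), a difference of -14.0%. The unadjusted p was 0.0156, and it was 0.147 with each array centred on its median, where the log2 difference was -0.14. Without garlic-fed mouse 1 the unadjusted p was 0.0533 and without control mouse 3 it was 0.0608, with log2 differences of -0.20 in both.

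The suffix _a_at marks a probe set that reads several transcripts of 1 gene. A second Hif1a probe set, 1416035_at, gave 922, 1112 and 1136 in garlic-fed mice, against 1243, 1041 and 1228 in control mice, with overlapping groups and a log2 difference of -0.15 (95% interval -0.43 to 0.13), which was -0.05 without garlic-fed mouse 1 and -0.23 without control mouse 2. The third, 1448183_a_at, gave 327.9, 279.2 and 532.1 in garlic-fed mice, against 383.2, 469.6 and 451.2 in control mice. Garlic-fed mouse 3 was the highest of the 6 and the other garlic-fed mice were the lowest, so that the log2 difference was -0.25 as measured (95% interval -0.75 to 0.25) and -0.52 without that mouse (adjusted p = 0.206). All 3 tested probe sets had a negative log2 difference, which is a description of 1 mRNA read repeatedly and not of separate samples. Markers of neutrophils, cells known to rely on HIF-1alpha, gave summed signals of 17764 to 24401 in garlic-fed mice, against 15156 to 19145 in control mice, and those of red pulp macrophages 74481 to 88163 in garlic-fed mice, against 71999 to 80462 in control mice. The 9 neutrophil markers had a median log2 difference of 0.40, with 8 positive, beside -0.03 over all genes. The 11 macrophage markers had one of 0.13, with all positive. An unadjusted p under 0.05 was found for 2 of the neutrophil and 3 of the macrophage markers, all higher (6.89% of all genes).

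Epas1 encodes HIF-2alpha, the alpha subunit of endothelial cells, macrophages and the cells that make erythropoietin. Its bright probe set gave 5751, 5251 and 4718 in garlic-fed mice, against 5360, 5682 and 5494 in control mice. The garlic-fed mice held both the highest and the lowest value, and the control mice lay between them. The log2 difference was -0.08 (standard error 0.09, 95% interval -0.28 to 0.12, adjusted p = 0.819 from limma). The dimmer probe set gave 198.6, 151.3 and 177.5 in garlic-fed mice, against 146.9, 157.2 and 186.8 in control mice, with a log2 difference of 0.10 (95% interval -0.35 to 0.56). Of the endothelial markers, among them Stab2 and Cldn5, all 11 were bright enough for the test. None had an unadjusted p under 0.05 (13.1% of all genes), and the summed signals were 8778 to 10112 in garlic-fed mice and 8949 to 10021 in control mice.

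Egln1 encodes PHD2, the main prolyl hydroxylase that marks HIF alpha subunits when oxygen is present, and is itself a HIF target. The brighter probe set gave 866.8, 1036 and 884 in garlic-fed mice, against 737.6, 845.3 and 817.4 in control mice. All garlic-fed mice lay above all control mice, by a gap smaller than the spread within either group. Its log2 difference was 0.21 (standard error 0.12, 95% interval -0.06 to 0.48, adjusted p = 0.572 from limma), and it was 0.13 without garlic-fed mouse 2. The other probe set gave 433.1, 437.3 and 445.9 in garlic-fed mice, against 384.9, 428.9 and 392.9 in control mice, again without overlap, and a log2 difference of 0.13 (95% interval -0.16 to 0.41, adjusted p = 0.787). Neither passed, at an unadjusted p of 0.108 and 0.348. Both read the mRNA of 1 gene in the same mice, so they are not separate observations.

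Egln3 encodes PHD3, a prolyl hydroxylase whose mRNA is among those most strongly raised by low oxygen in many cells. One of its probe sets, 1418649_at, gave 67.5, 65.5 and 64 in garlic-fed mice, against 107.5, 128.4 and 109.6 in control mice. The 3 garlic-fed mice were nearly equal and well below the control mice, and the log2 difference was -0.81. The probe set was dim, however, and was tested only because of its control signals: the limit set for the test, a mean log2 signal of 6.08, corresponds to a signal of 67.5, and the garlic-fed mice averaged 6.04. A probe set that enters in this way had to be higher in control mice, so that its difference is given as a description. When all 45037 probe sets were tested, whatever their signal, it had an adjusted p of 0.319 from limma. The other Egln3 probe set gave 88.2, 58.4 and 97.7 in garlic-fed mice, against 75.5, 99.1 and 52.7 in control mice. These values overlapped entirely, with a log2 difference of 0.12 (95% interval -0.66 to 0.89, adjusted p = 0.940), and when both probe sets were averaged the log2 difference of Egln3 was -0.34.

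**Figure D2:**
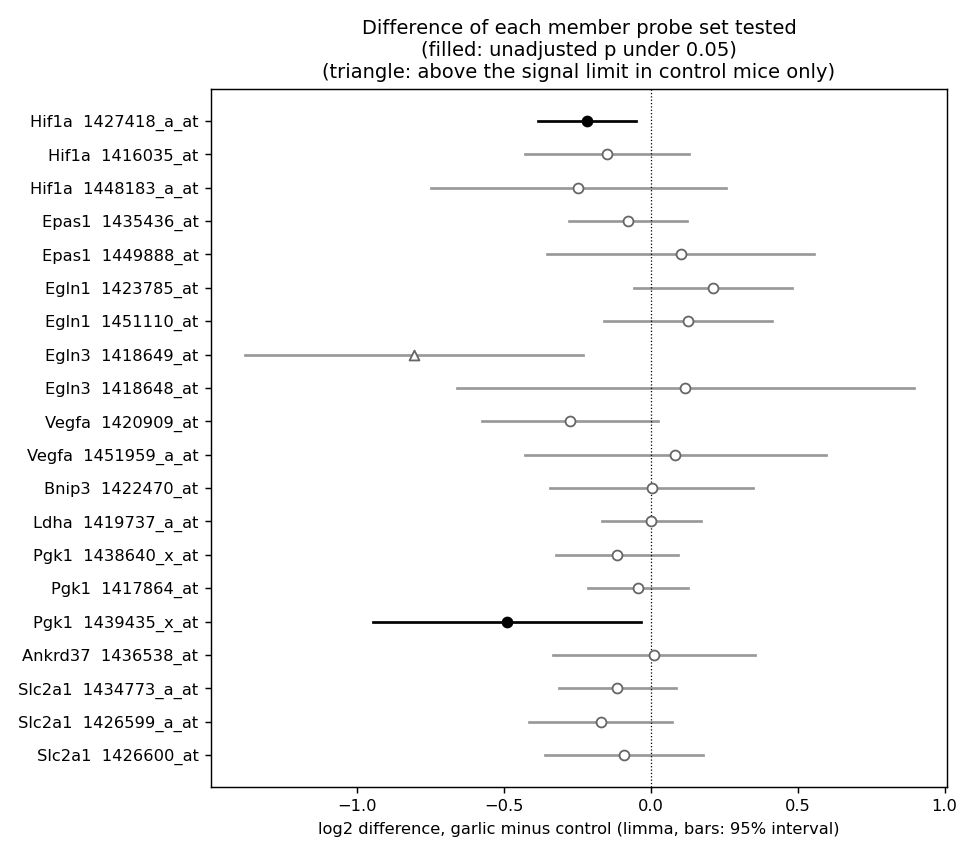
Log2 difference, garlic minus control, of the 20 member probe sets tested (points) with 95% intervals from limma (lines). Filled points have an unadjusted p under 0.05, which are 1 probe set each of Hif1a (-0.22) and Pgk1 (-0.49), the triangle is the Egln3 probe set (-0.81) that was above the signal limit in control mice alone, and the intervals of the other 17 include 0.

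Vegfa encodes the vascular endothelial growth factor, which HIFs raise to draw new vessels to tissue short of oxygen. The brighter probe set gave 601.9, 489.9 and 519.5 in garlic-fed mice, against 665.2, 694.1 and 585.3 in control mice. Garlic-fed mouse 1 lay above control mouse 3, so that the groups overlapped by this pair alone. Its log2 difference was -0.27 (standard error 0.13, 95% interval -0.57 to 0.03, adjusted p = 0.498 from limma). The probe set 1451959_a_at gave 151.6, 168.1 and 216.1 in garlic-fed mice, against 130.8, 189.6 and 186.5 in control mice, with a log2 difference of 0.08 (95% interval -0.43 to 0.60). The sign thus differed between probe sets of this gene, as it did for Epas1 and Egln3, and the difference between the probe sets of a gene was not tested.

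Slc2a1, Pgk1 and Ldha belong to the glycolytic arm of the response. Slc2a1 encodes the glucose transporter GLUT1, and its brightest probe set gave 2051, 1885 and 1952 in garlic-fed mice, against 2208, 2076 and 2086 in control mice. The groups did not overlap, though garlic-fed mouse 1 was close to control mice 2 and 3. The log2 difference was -0.11 (standard error 0.09, 95% interval -0.31 to 0.09, adjusted p = 0.706 from limma). The other probe sets of Slc2a1 had log2 differences of -0.17 (95% interval -0.41 to 0.07) and -0.09 (95% interval -0.36 to 0.18), with overlapping groups, so that all 3 were negative and none passed.

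Pgk1 encodes phosphoglycerate kinase, an enzyme of glycolysis that makes ATP. Its brightest probe set, 1438640_x_at, gave 5112, 4938 and 5789 in garlic-fed mice, against 5556, 5362 and 6234 in control mice, with a log2 difference of -0.12 (95% interval -0.32 to 0.09, adjusted p = 0.715 from limma). The probe set 1417864_at gave 5131, 5289 and 4948 in garlic-fed mice, against 5209, 5127 and 5488 in control mice, with a log2 difference of -0.04 (95% interval -0.21 to 0.13). In both, the mice of the groups were interleaved. The third, 1439435_x_at, gave 1038, 1016 and 1202 in garlic-fed mice, against 2223, 1182 and 1334 in control mice. Control mouse 1 stood far above the other 5 mice there, and this mouse set the value: the log2 difference was -0.49 with it (unadjusted p = 0.0384, adjusted p = 0.422) and -0.21 without it (unadjusted p = 0.140). The suffix _x_at marks probe sets that may bind other transcripts. Control mouse 1 also had the most pancreatic signal, and the part of either in this value was not tested. In 1438640_x_at the same mouse lay between the other control mice.

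Ldha encodes the A subunit of lactate dehydrogenase, which turns pyruvate into lactate. It gave 6573, 7370 and 6851 in garlic-fed mice, against 6955, 7002 and 6777 in control mice. The group means were close, 6931 ± 405 in garlic-fed mice and 6911 ± 118 in control mice (SD, n = 3 each), and the log2 difference was 0.0027 (standard error 0.08, adjusted p = 0.993 from limma). The 95% interval of this difference, -10.8% to 12.6%, was among the narrowest of the members. For 1417864_at of Pgk1 it was -13.6% to 9.23%.

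Bnip3 and Ankrd37 are targets outside glucose metabolism, each read by 1 probe set. Bnip3 encodes a protein of the outer mitochondrial membrane that directs mitochondria to removal, and gave 594.2, 603.3 and 447.1 in garlic-fed mice, against 501, 523.3 and 606.7 in control mice. Garlic-fed mouse 3 was the lowest and control mouse 3 the highest of all, while the other garlic-fed mice lay above the other control mice. The log2 difference was 0.0037 (standard error 0.16, 95% interval -0.34 to 0.35, adjusted p = 0.996 from limma), and it was 0.14 without garlic-fed mouse 3 and -0.13 without the arrays of the most pancreatic signal. Ankrd37 encodes an ankyrin repeat protein whose mRNA rises in hypoxic cells. It gave 419.9, 378.6 and 375.5 in garlic-fed mice, against 359.4, 350.7 and 461.7 in control mice, with overlap in both directions, and its log2 difference was 0.01 (95% interval -0.33 to 0.36, adjusted p = 0.987).

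**Figure D3:**
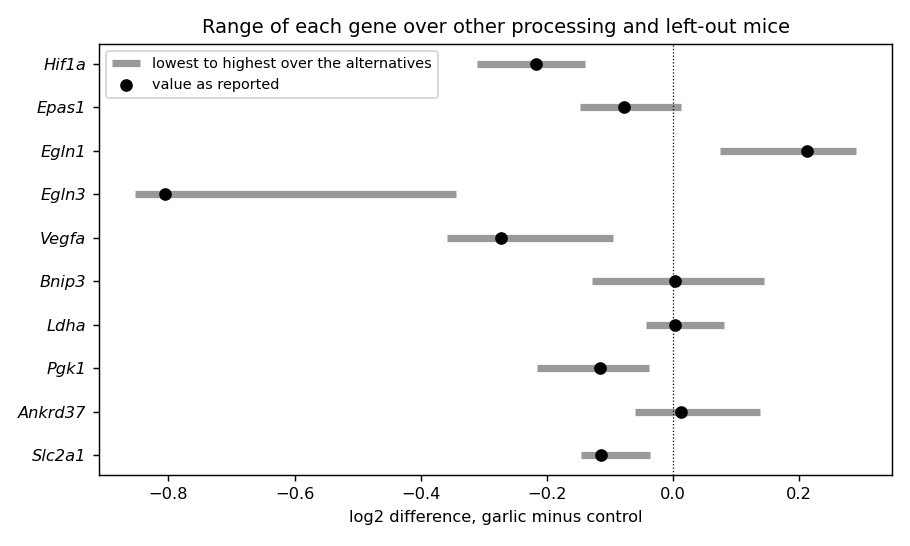
Log2 difference, garlic minus control, of the brightest probe set of each gene as reported (black points) and its lowest to highest value over other normalizations, floors, filters, tests, averaged probe sets and left-out mice (gray bars). The bars of Hif1a (-0.31 to -0.14), Egln1 (0.07 to 0.29), Egln3 (-0.85 to -0.34), Vegfa (-0.36 to -0.09), Pgk1 (-0.22 to -0.04) and Slc2a1 (-0.15 to -0.04) lie on 1 side of 0, and those of Epas1, Bnip3, Ldha and Ankrd37 cross it, while the side of Egln3 is fixed by the signal limit that it passed in control mice alone.

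To place the members in their pathway, 93 further genes of HIF control and HIF targets were listed by role. Of these, 85 were on the table, 7 were too dim to test and 78 were tested, and Epo and Bnip3l were among the 8 not analysed here. Of the 78, Tfrc was higher at an adjusted p under 0.05 and none was lower, where 0.343% of all genes were higher and 0.00816% lower. An unadjusted p under 0.05 was found for 11 that were higher and 2 that were lower, beside 6.89% and 6.24% of all genes. One of the 11, Slc16a3, was above the limit on dim signals in garlic-fed mice alone, which fixes its direction. The median log2 difference of the 78 was 0.0034, with 40 positive and 38 negative, and that of all genes tested was -0.03.

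Among the partners and controllers of HIF, the mRNAs of the constant parts of the pathway overlapped between the groups. Arnt, which encodes the beta subunit HIF-1beta, gave 1038, 1136 and 870 in garlic-fed mice, against 1323, 1185 and 630.3 in control mice, a log2 difference of 0.02 (95% interval -0.52 to 0.56). Control mouse 3 was the lowest, and without it the log2 difference was -0.31. Vhl, the gene of the protein that binds hydroxylated HIF, had a log2 difference of -0.14 (95% interval -0.41 to 0.14), Egln2, which encodes the hydroxylase PHD1, one of 0.02 (95% interval -0.21 to 0.25), and Hif1an, which encodes the asparaginyl hydroxylase that blocks the binding of coactivators, one of -0.0092 (95% interval -0.36 to 0.34). Crebbp, the gene of the coactivator CBP and the brightest of the subunits and partners other than Hif1a and Epas1, had a log2 difference of 0.18 (95% interval -0.0056 to 0.37) and was higher in all garlic-fed mice than in any control mouse. Siah1a, which encodes a ubiquitin ligase known to act on prolyl hydroxylases, had overlapping groups and a log2 difference of 0.50 (adjusted p = 0.338 from limma), which was 0.31 without control mouse 3. Hsp90aa1, which encodes a heat shock chaperone of HIF-1alpha, also had overlapping groups, with a log2 difference of 0.35 (adjusted p = 0.389) that was 0.19 without garlic-fed mouse 3 and 0.53 without garlic-fed mouse 1.

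Among the other targets of glycolysis, 4 had an unadjusted p under 0.05, and the 3 with the smallest p are described. Pdk1, which encodes the kinase that keeps pyruvate out of mitochondria, gave 1637, 1076 and 1414 in garlic-fed mice, against 2474, 2019 and 2052 in control mice. No garlic-fed mouse reached a control mouse, and the log2 difference was -0.68 (standard error 0.15, adjusted p = 0.125 from limma). Without the arrays of the most pancreatic signal, garlic-fed mouse 2 and control mouse 1, it was -0.42 (adjusted p = 0.680). Hk1, the gene of the hexokinase used by red cells among others, gave 2282, 2342 and 2893 in garlic-fed mice, against 1623, 1902 and 1786 in control mice, a log2 difference of 0.50 (standard error 0.12, adjusted p = 0.133) with no overlap. Pfkp, which encodes a phosphofructokinase, had a log2 difference of -0.23 (adjusted p = 0.413). Over the 17 glycolytic genes tested, members included, an unadjusted p under 0.05 was found for 2 that were higher and 2 that were lower. Of all genes 6.89% were higher and 6.24% lower, and the median of the 17 was -0.03. Slc16a3, 1 of the 2 higher, had a mean signal of 104 in garlic-fed mice and 62.9 in control mice. It was above the limit on dim signals, 67.5, in garlic-fed mice alone, which fixes its direction.

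Of the 10 genes tested for vessel growth and tone, none passed at an unadjusted p under 0.05 (13.1% of all genes), and the median log2 difference was -0.06. Cxcl12, a chemokine gene and the brightest of those other than Vegfa, had one of -0.07 (95% interval -0.27 to 0.14). In the list of mitochondria and survival, Mxi1, which encodes an antagonist of Myc, had a log2 difference of 0.51 (adjusted p = 0.331 from limma). It was the only gene of 10 at an unadjusted p under 0.05 (13.1% of all genes). P4ha1 encodes a prolyl hydroxylase that modifies collagen, not HIF, and gave 527.8, 849.3 and 713.8 in garlic-fed mice, against 302.2, 369.1 and 434.6 in control mice. Every garlic-fed mouse was above every control mouse, with a log2 difference of 0.91 (standard error 0.20, adjusted p = 0.114), and without the arrays of the most pancreatic signal it was 0.62 (adjusted p = 0.716).

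**Figure D4:**
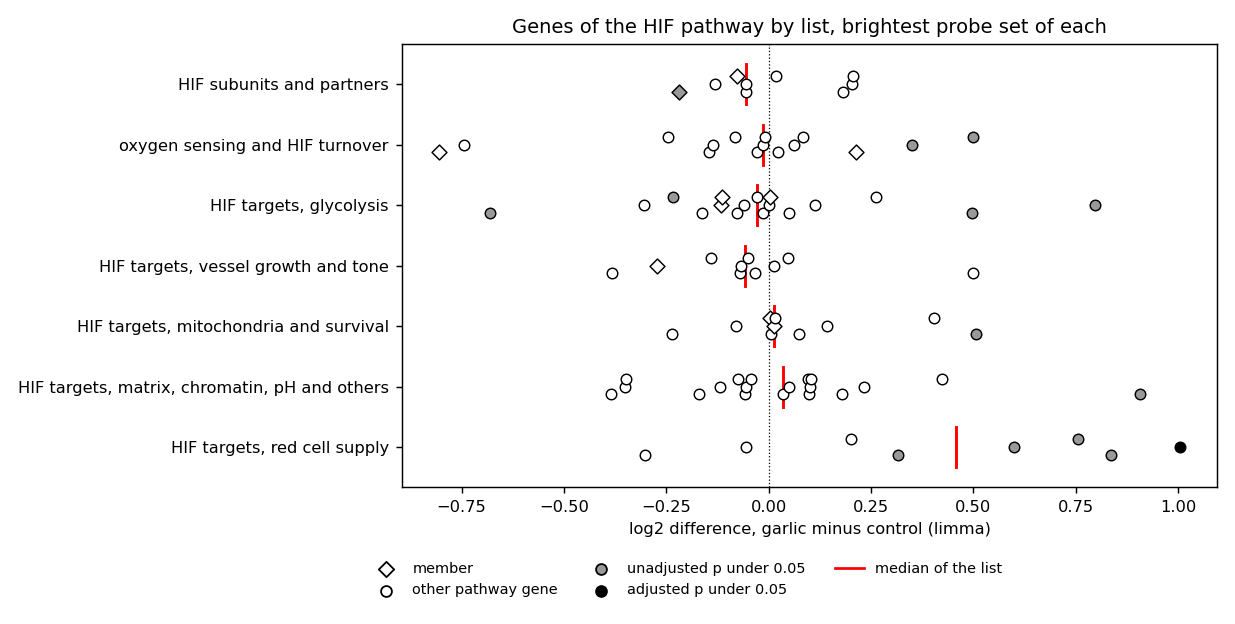
Log2 difference, garlic minus control, of the tested genes of 7 lists of HIF control and HIF targets, each by its brightest probe set, with diamonds for the members, circles for other genes, gray fill for an unadjusted p under 0.05 (not given to Egln3, dim in garlic-fed mice), black fill for an adjusted p under 0.05 and red lines for the median of a list. Tfrc in the list of red cell supply, at 1.01, is the one gene past the adjusted threshold, and the medians of the other 6 lists lie between -0.06 and 0.04. Slc16a3 in the list of glycolysis has gray fill, though it was above the signal limit in garlic-fed mice alone.

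The list that stood highest was that of red cell supply, whose 8 tested genes had a median log2 difference of 0.46, of which 5 were higher with an unadjusted p under 0.05 (6.89% of all genes) and none lower. Tfrc, the gene of the transferrin receptor for iron uptake, gave 8635, 9451 and 11313 in garlic-fed mice, against 4136, 5205 and 5298 in control mice. It rose 2.01-fold, a log2 difference of 1.01 (standard error 0.12) with an adjusted p of 0.0186 from limma, and was higher in all 3 garlic-fed mice. The adjusted p was above 0.05 when control mouse 1 (0.0861) or control mouse 2 (0.0797) was left out, without the arrays of the most pancreatic signal (0.0739), without the limit on dim probe sets (0.298), without the trend of variance on signal (0.255), and with the analysis of variance that the methods name, on log2 signals (0.392) or linear signals (0.409). With the probe sets of a gene averaged, no pathway gene passed. Hmox1, which encodes heme oxygenase 1, had a log2 difference of 0.32 (95% interval 0.11 to 0.52, adjusted p = 0.221). Hey2, the gene of a transcriptional repressor of the Notch pathway, was too dim to test, with signals of 26, 35 and 13.6 in garlic-fed mice, against 54.6, 55 and 59.8 in control mice. Tfrc and Alas2 of this list are also markers of erythroid cells, of which 8 of 9 had an unadjusted p under 0.05, all higher, with a median log2 difference of 1.01 and summed signals of 55086 to 76572 in garlic-fed mice and 35574 to 44382 in control mice. The part of erythroid cells in this list was not tested.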

How the data were processed

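Total RNA of frozen spleens was labeled and hybridized by the authors' service laboratory, and the authors deposited 1 MAS5 intensity per probe set and array, on the linear scale, with the software version not given in the sources used here. Arrays shared a mean of 498 after trimming 2% from either end. Gene names came from the platform annotation (34945 with 1 gene, 932 with several, 9160 with none), and 34741 matched a reference gene by identifier. After 64 control probe sets were left out, a floor was set at 23.5, the 20th percentile of all signals, log2 was taken, and the 27022 probe sets with a mean above the 40th percentile, 6.08, were tested by a linear model per probe set with moderated variances that follow the signal (limma 3.58.1, R 4.3.3). For counts by gene, the brightest probe set by mean log2 signal stood for the gene.

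The members and lists were chosen with earlier results of these data known, the lists from textbook knowledge of the HIF pathway. Named are the 10 members with every probe set, the listed genes past the adjusted threshold, otherwise up to 3 of each list with the smallest unadjusted p under 0.05 or the brightest one, and 7 genes of fixed interest, of which Epo was not analysed here. Alternatives were other normalizations, floors and filters, no variance trend, the methods' ANOVA, the replicate block, averaged probe sets, and left-out arrays. The number of arrays limits the precision. The fit was also run on simulated data with independent noise in each value. Such data lack shifts between arrays and foreign tissue, so that run cannot show how the fit deals with them. Plots and start windows were made in Python 3.11.15 (matplotlib 3.10.9).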

Additional observations from a re-analysis of the deposited data

How the results depend on the processing

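No member probe set passed the adjusted threshold under any of the 17 alternatives run on probe sets. The number of member probe sets at an unadjusted p under 0.05, 3 when that of Egln3 is counted, was 1 with median centring, without the trend of variance and without the arrays of the most pancreatic signal, and 2 to 4 when single mice were left out. With median centring and without the trend of variance, the only one counted was that of Egln3, whose direction is fixed by the signal limit. Its unadjusted p from limma was 0.0206 to 0.0480 when single mice were left out, so each of those counts includes it. By gene, Egln3 counted, the number was 2, and 1 with averaged probe sets. The number of all probe sets past the adjusted threshold, 64 as reported, was 151 with median centring, 11 without the filter, 0 without the trend of variance and with either ANOVA, 295 with the replicate block, 28 without the arrays of the most pancreatic signal, and 0 (without control mouse 1 or control mouse 2) to 114 (without garlic-fed mouse 1) when single mice were left out. At an unadjusted p it was 1464 without the arrays of the most pancreatic signal and 1929 to 3779 without single mice. The count of other pathway genes, 1 as reported, was 0 without the filter, without the trend of variance, with either ANOVA, with averaged probe sets and without the arrays of the most pancreatic signal, 4 with the replicate block, and 0 to 1 without single mice.

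The brightest probe sets of Hif1a, Egln1, Vegfa, Pgk1 and Slc2a1 kept their sign in every alternative. That of Egln3, above the limit in control mice alone, was too dim for a filter at the 60th percentile. Differences near 0 changed sign. With quantile normalization Ldha was at -0.0098 and Hif1an at 0.0019, and with median centring Epas1 was at 0.00073, 1417864_at of Pgk1 at 0.036, Hif1an at 0.069 and Cxcl12 at 0.011. With ANOVA on linear signals Arnt was at -0.044 and Hif1an at 0.0062. Without the arrays of the most pancreatic signal 1451959_a_at of Vegfa was at -0.055, Bnip3 at -0.13, Ldha at -0.038, Ankrd37 at -0.019 and Egln2 at -0.016, and with averaged probe sets Epas1 was at 0.012. Without single mice, Bnip3 ranged from -0.072 to 0.14, Ankrd37 from -0.060 to 0.14, Ldha from -0.042 to 0.040, the dim probe set of Vegfa from -0.091 to 0.19, 1418648_at of Egln3 from -0.12 to 0.34, Arnt from -0.31 to 0.22, Egln2 from -0.029 to 0.071, Hif1an from -0.10 to 0.15 and Cxcl12 from -0.13 to 0.015. The causes were not tested.

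The labels give replicate numbers and name no pairing. Deviations of mice of the same number correlated at 0.00064, -0.18 and 0.08, and those of other pairs at -0.15 to 0.16. With so few mice per group these values cannot show whether mice of a number shared anything else. With that block Pdk1 and P4ha1 had an adjusted p of 0.0218 and 0.0222. Values near the floor, as of Hey2, or near the limit on dim signals, as of Egln3, are limited by signal over background.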
